A study of Mus musculus with 6 samples.

Results

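Voltage-gated sodium and calcium channels open when a neuron depolarises. Sodium channels carry the upstroke of the action potential, and calcium channels turn depolarisation into calcium entry, which drives transmitter release at the synapse and calcium signalling in the cell body. Each channel is built around a large pore-forming alpha subunit that holds the voltage sensors, and smaller auxiliary subunits (beta subunits of sodium channels, and alpha2delta, beta and gamma subunits of calcium channels) set its trafficking, surface number and gating. The genes described here are those of the table of 21937 gene symbols whose symbol is Scn followed by a number and a or b, or starts with Cacna, Cacnb or Cacng. There were 39 such genes, 19 pore-forming and 20 auxiliary. The sodium channel gene Scn2a was listed under its older symbol Scn2a1, which that pattern leaves out, so its values are given beside the others and are not in the counts.

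The cells compared were cortical cells of mouse embryos that had been electroporated in utero. Plasmids with an shRNA against Nat14 (shNat14, 3 libraries) or with a control shRNA (NTC, 3 libraries) were injected into the lateral ventricle at embryonic day 14.5, and live GFP-positive cells were sorted from dissociated cortex at embryonic day 18.5, 4 days later. The mouse strain, the sequence of either shRNA and the embryos or litters behind each library are not given in the labels. A p-value here therefore reflects the scatter among the 6 libraries, part or all of which may be technical. The file used is the authors' own comparison and holds no values per library, so a gene has 1 mean level over all 6 libraries, 1 fold change and 1 p-value, without SD or depth. Fold changes are for shNat14 over NTC. The header does not state this direction. It was read from Nat14, the target of the shRNA, which stood at a log2 fold change of -3.31 per the authors' deposited table (adjusted p = 1.2e-08), and so the sign of Nat14 is no check of the labels.

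The labelled cell type was set against markers of neurons and of other cells. All 10 neuronal genes listed were above the lowest level per the authors' deposited table. CPM is a level scaled to library size, here 2 to the power of the deposited mean log2 CPM. Among the 10 were the tubulin Tubb3 at 913 CPM, the migration protein Dcx at 905 CPM and the microtubule protein Map2, listed as Mtap2, at 759 CPM. Of these 10 genes, 6 had a positive and 4 a negative fold change per the authors' deposited table, with a median log2 fold change of 0.31. The growth cone protein Gap43 was the single one at unadjusted p under 0.05 per the authors' deposited table (fold change 0.78 on the log2 scale, p = 0.0114). Genes of radial glia and progenitors, the cells that line the ventricle, were also present, all 10 of them between 17.4 and 2012 CPM per the authors' deposited table, the lipid-binding protein Fabp7 at 2012 CPM. Of these 10 genes, 3 had a positive and 7 a negative value, with a median log2 fold change of -0.14, and 0 had an unadjusted p under 0.05 per the authors' deposited table. Of 9 genes of the oligodendrocyte lineage, between 1.70 and 72.6 CPM, 8 had a negative value and 1, Cnp, an unadjusted p under 0.05 per the authors' deposited table. Skeletal muscle genes, listed because several channel subunits are muscle types, ran from the lowest level to 1.89 CPM per the authors' deposited table. In sorted bulk cells, fewer cells of a type and less RNA per cell cannot be told apart.

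No subunit gene was called in the comparison of shNat14 with NTC. Of the 39 genes, 0 had an adjusted p under 0.05 per the authors' deposited table, where 34 of all 21937 genes did, or 0.155%. At an unadjusted p under 0.05 there were 3 of the 39 genes (7.69%), all higher in shNat14, beside 5.04% of all genes in either direction and 2.79% in the higher direction per the authors' deposited table. Among genes above the lowest level, the shares in either direction were 7.89% of 38 subunit genes and 6.35% of all 17400 genes. The 3 genes were Cacna2d1, Scn4b and Scn3a, and their adjusted p-values lay from 0.378 to 0.982 per the authors' deposited table. Every other subunit gene had an adjusted p of 1 there. A p that misses the threshold does not show that a gene was at the same level in both groups.

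Levels set how far a fold change could be read. The median mean level over the authors' deposited table was a log2 CPM of 1.71, which is 3.27 CPM. Of the 39 genes, 18 were at or above it, 20 lay below it, and 1, Scn10a, sat at the lowest level, which 4537 genes of the authors' deposited table share. This lowest level was 0.117 CPM, a floor rather than a measured amount. The 18 that reached the median level had log2 fold changes from -0.66 to 1.48 per the authors' deposited table. The 20 below it ranged from -4.00 to 4.61 per the authors' deposited table, and 0 of these had an unadjusted p under 0.05. The widest values were those of Cacna1f and Cacna2d4, both at low levels, as the plot of level against fold change shows. A fitted fold change at such a level depends on the prior count, which is not given in the sources used here, and bounds nothing.

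**Figure D1:**
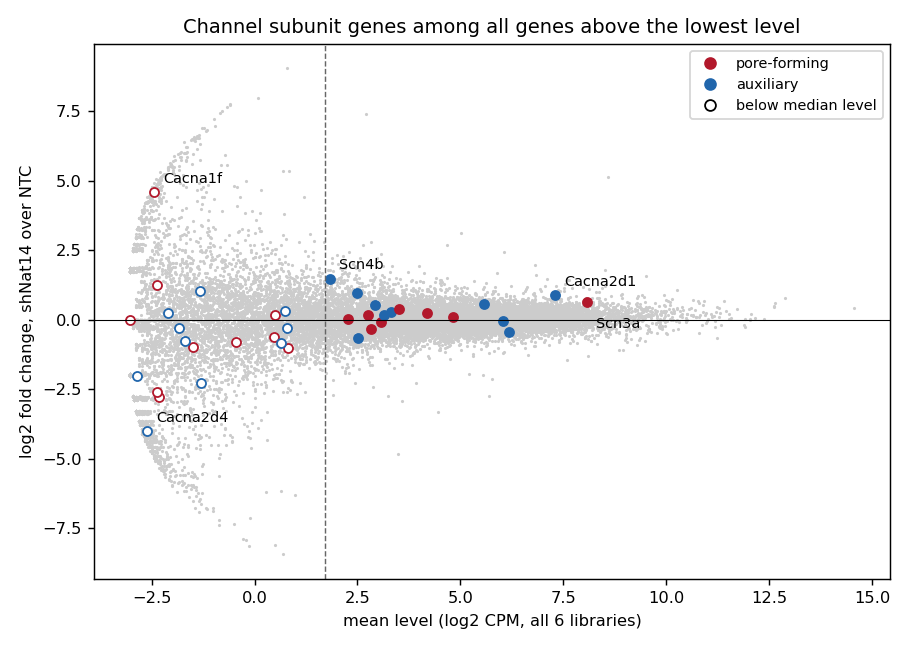
Mean level over all 6 libraries (log2 CPM, x axis) against log2 fold change of shNat14 over NTC (y axis) per the authors' deposited table, with 1 grey point for each of the 17400 genes above the lowest level. Red points are pore-forming and blue points auxiliary subunit genes, open below the median level (dashed line), where the 20 points spread from -4.00 to 4.61, against -0.66 to 1.48 for the 18 filled points.

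Per length of transcript, a few genes of each subunit class held most of the signal. Levels were divided by the summed exon length of each gene to allow comparison between genes, and are given as CPM per kb. Scn3a was at 28.0 CPM per kb from the authors' deposited table, Cacnb3 at 22.3, Cacna2d1 at 18.8 and Scn3b at 15.9. The next, Cacnb4, was at 5.43 CPM per kb from the authors' deposited table. Of these 5 genes, 4 are auxiliary. The calcium channel gene with a pore that had the highest level was Cacna1h at 1.38 CPM per kb from the authors' deposited table, below the leading gene of the alpha2delta and beta groups. These levels are means over both groups of libraries and carry no error.

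**Figure D2:**
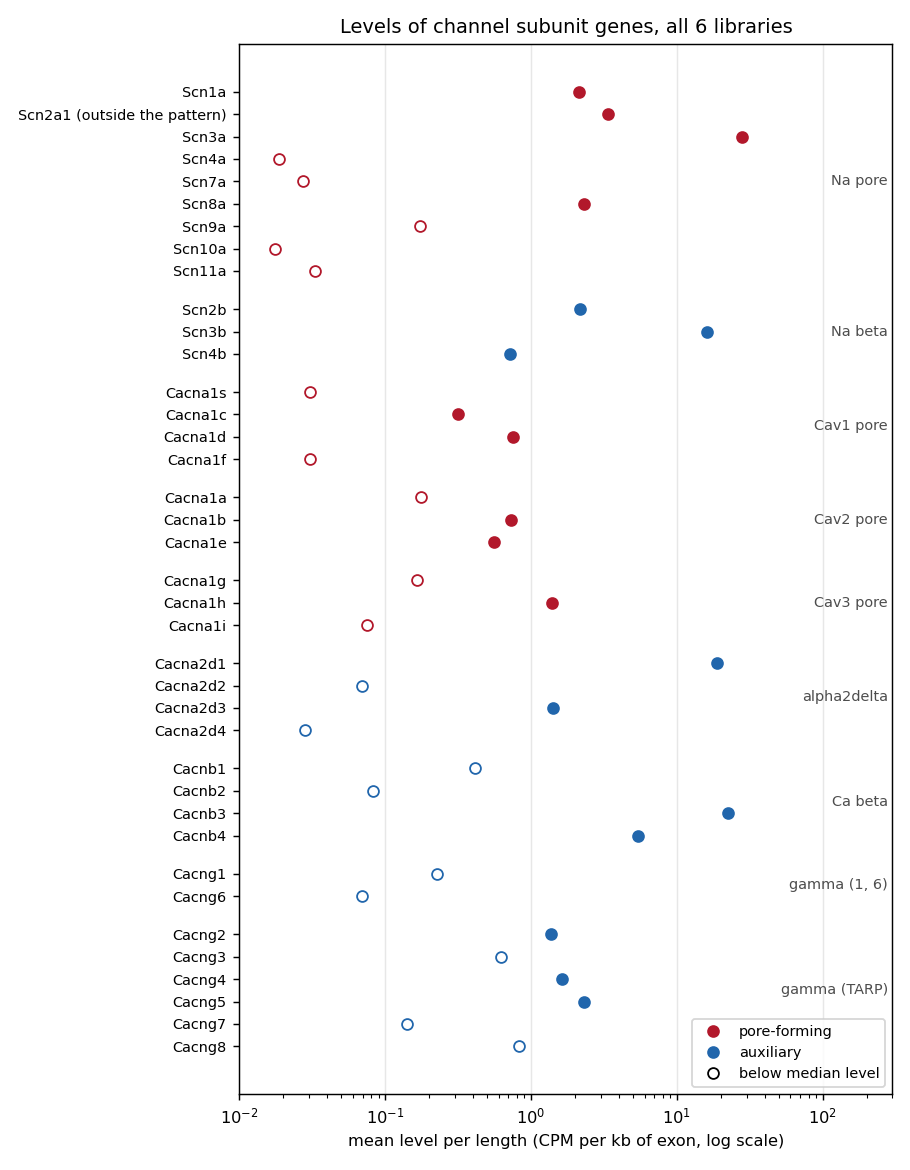
Mean level per length (CPM per kb of exon, log scale, x axis) over all 6 libraries for subunit genes and Scn2a1, grouped by role (y axis). Filled points are genes at or above the median level of the table and open points genes below it. Scn3a, Cacnb3, Cacna2d1 and Scn3b lie between 15.9 and 28.0, and all Cav1, Cav2 and Cav3 pore genes lie at or below 1.38.

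Among the pores of sodium channels, Scn3a had the highest level and the smallest unadjusted p, and it was not called. Scn3a encodes Nav1.3, the sodium channel of embryonic brain that recedes after birth. It had a mean of 271 CPM and a log2 fold change of 0.63 per the authors' deposited table, a 1.54-fold higher level in shNat14 than in NTC (p = 0.0399, adjusted p = 0.982). It made up 77.6% of the summed level per length of the 10 pore genes, Scn2a1 included, computed here from the deposited levels and the exon lengths. The other brain channels lay closer to no change. Scn1a (Nav1.1, prominent in inhibitory neurons of the mature cortex) was at 18.1 CPM with a log2 fold change of 0.24 per the authors' deposited table (p = 0.552). Scn8a (Nav1.6, the main channel of the mature axon initial segment) was at 28.3 CPM with 0.09 on the log2 scale per the authors' deposited table (p = 0.819). Scn2a1 (Nav1.2, of excitatory neurons) was at 30.5 CPM with 0.11 on the log2 scale per the authors' deposited table (p = 0.763). The 3 brain pore genes of the pattern at or above the median level, and Scn2a1, all had positive values, from 0.09 to 0.63. Of all genes of that level, 53.6% had positive values.

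The remaining pores of sodium channels belong mainly to tissues outside the cortex and were low. Scn9a (Nav1.7, of sensory neurons) was at 1.74 CPM with a log2 fold change of -1.03 per the authors' deposited table (p = 0.224). Scn7a (the sodium sensor Nax) had -2.77 (p = 0.589) and Scn11a (Nav1.9, of sensory neurons) -2.59 (p = 0.176) on the log2 scale per the authors' deposited table, at 0.201 and 0.195 CPM in that order. Scn4a (Nav1.4, of skeletal muscle) and Scn10a (Nav1.8, of sensory neurons) were listed with a fold change of 0 and p = 1 per the authors' deposited table.

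Sodium channel beta subunits are single-pass membrane proteins with an immunoglobulin domain that also act in cell adhesion. Scn4b had the largest fold change of the 18 subunit genes at or above the median level, with a log2 fold change of 1.48 per the authors' deposited table, or 2.79-fold higher in shNat14 than in NTC (p = 0.0246, adjusted p = 0.856). Its mean level of 3.54 CPM per the authors' deposited table was just above the median of 3.27 CPM. Scn3b, the most abundant beta subunit at 72.1 CPM, had a value in the opposite direction per the authors' deposited table (fold change -0.46 on the log2 scale, p = 0.16), and made up 84.2% of the summed level per length of the 4 beta genes. Scn2b was at 10.01 CPM with a log2 fold change of 0.28 per the authors' deposited table (p = 0.559).

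Low-voltage and high-voltage calcium channels were read by their pore families. The Cav1 genes encode L-type channels, which link depolarisation to gene expression in neurons. Cacna1d (Cav1.3) was their most abundant gene at 6.78 CPM with a log2 fold change of 0.18 per the authors' deposited table (p = 0.758). Cacna1c (Cav1.2) was at 4.79 CPM with 0.03 on the log2 scale per the authors' deposited table (p = 0.948). The retinal channel Cacna1f had the smallest p of the family per the authors' deposited table (fold change 4.61 on the log2 scale, p = 0.124) and the skeletal muscle channel Cacna1s stood at 1.24 (p = 0.502), both under 0.2 CPM. The 4 values of the family were positive, and those at or above the median level were 0.03 and 0.18.

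The Cav2 genes encode the channels that trigger transmitter release. Cacna1e (R type) was at 8.45 CPM with a log2 fold change of -0.10 per the authors' deposited table (p = 0.873), and Cacna1b (N type) at 7.11 CPM with -0.35 on the log2 scale (p = 0.561). Cacna1a (P/Q type, the main release channel of the mature synapse) had the smallest p of the family per the authors' deposited table, at 1.40 CPM with a log2 fold change of -0.61 (p = 0.344). All 3 Cav2 values were negative and none had an unadjusted p under 0.05. The Cav3 genes encode T-type channels, which open at low voltage. Cacna1h (Cav3.2) was at 11.4 CPM with a log2 fold change of 0.37 per the authors' deposited table (p = 0.412) and made up 85.2% of the summed level per length of the 3 genes. Cacna1g (Cav3.1) stood at 0.17 (p = 0.846) and Cacna1i (Cav3.3) at -0.80 (p = 0.34) on the log2 scale per the authors' deposited table, at 1.40 and 0.737 CPM.

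The alpha2delta subunits are extracellular proteins that raise the number of calcium channels at the surface. Cacna2d1, the target of gabapentin and a receptor for thrombospondins in synapse formation, had the smallest p of all 39 subunit genes. It had a mean of 157 CPM and a log2 fold change of 0.90 per the authors' deposited table, 1.87-fold higher in shNat14 than in NTC (p = 0.00274, adjusted p = 0.378). Cacna2d3 had a similar value at a lower level, 5.57 CPM with a log2 fold change of 0.95 per the authors' deposited table (p = 0.0709). Cacna2d2 and Cacna2d4 had values in the opposite direction at the low end of the level range, -2.27 (p = 0.148) and -4.00 (p = 0.111) on the log2 scale per the authors' deposited table, at 0.406 and 0.164 CPM. Cacna2d1 made up 92.5% of the summed level per length of the 4 genes.

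Cacna2d1 is also expressed by smooth muscle, and markers of vessels were examined beside it. The libraries are of live GFP-positive cells sorted after injection of plasmid into the ventricle. Whether vessel cells passed this gate was not tested. Of 9 endothelial and mural cell genes, 8 had a positive fold change per the authors' deposited table. Their median log2 fold change was 1.86, at levels from 0.611 to 40.3 CPM. The 4 of them at or above the median level had a lower median of 0.79, with 3 positive and 1 negative. The negative one was the mural cell (pericyte) gene Pdgfrb, with a log2 fold change of -0.75 at 5.88 CPM. The mural cell genes Rgs5, Acta2 and Myh11 had positive values. That of Myh11 was 4.80 on the log2 scale, at 0.710 CPM and so below the median level. None of these 9 genes was called and 4 had an unadjusted p under 0.05 per the authors' deposited table, all higher in shNat14, among them the pericyte gene Rgs5 (log2 fold change 1.41, p = 0.0477) and the smooth muscle actin Acta2 (1.86, p = 0.021). Myh11 was among these 4 genes and Pdgfrb was not. None of the 9 sat at the lowest level. In the opposite direction, all 10 astrocyte genes had a negative fold change per the authors' deposited table, with 5 at unadjusted p under 0.05 and 1, Agt, called lower (log2 fold change -6.33, adjusted p = 6.99e-06). Agt was at 1.98 CPM, below the median level. The 8 astrocyte genes at or above that level had a median log2 fold change of -0.67, with 4 at unadjusted p under 0.05 and 0 called. Levels of the 10 genes ran from 1.19 to 770 CPM per the authors' deposited table. Of 10 microglia genes 9 had a negative fold change per the authors' deposited table, with 5 at unadjusted p under 0.05 and levels from 0.744 to 37.1 CPM. Of 9 interneuron genes 8 were negative per the authors' deposited table, with 4 at unadjusted p under 0.05 and levels from 0.431 to 64.6 CPM. At or above the median level, 3 of 5 microglia genes and 4 of 6 interneuron genes had such a p. Of all genes, 5.91% did at that level and 6.35% above the lowest level. The part of any of these cell types in the values of the subunit genes was not tested.

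The promoters of Cacna2d1 and Scn4b are shown because these genes had the smallest p-values of the family. Each is the 250 bases before the annotated start in RefSeq (build GRCm38.p6), 5′ to 3′ on the plus strand, chr5:15934441-15934690 for Cacna2d1 and chr9:45138374-45138623 for Scn4b. Capitals mark matches, on either strand, to the motifs searched.
Cacna2d1: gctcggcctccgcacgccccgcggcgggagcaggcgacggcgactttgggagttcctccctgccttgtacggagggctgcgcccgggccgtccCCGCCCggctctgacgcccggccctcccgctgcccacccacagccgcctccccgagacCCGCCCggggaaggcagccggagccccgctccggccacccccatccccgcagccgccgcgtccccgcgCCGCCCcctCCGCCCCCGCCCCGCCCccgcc
Scn4b: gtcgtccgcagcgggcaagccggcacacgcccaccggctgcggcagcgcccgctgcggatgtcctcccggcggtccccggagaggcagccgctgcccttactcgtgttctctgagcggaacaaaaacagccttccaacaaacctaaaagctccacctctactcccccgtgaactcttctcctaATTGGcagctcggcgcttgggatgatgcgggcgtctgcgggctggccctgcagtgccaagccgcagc
The motifs searched were the TATA box (TATAAA), the GC box (GGGCGG), the CCAAT box (CCAAT), the cAMP response element (TGACGTCA) and the left part of RE1, the site of the neuronal repressor REST (TTCAGCACC). The Cacna2d1 window held 6 GC box matches, some overlapping by 1 letter, and the Scn4b window 1 CCAAT box match. A GC box was found in 32.7% and a CCAAT box in 33.8% of all 32851 promoter windows of this length. The Cacna2d1 window was 82.4% G and C with 36 CG pairs and the Scn4b window 66.0% with 23, beside medians of 52.4% and 6 pairs over all windows. Over the 39 windows of the 29 subunit genes in the table of promoters, 38.5% held a GC box, 25.6% a CCAAT box, 1 window, of Cacna1d, a TATA box and none an exact cAMP response element or RE1 left part. A match is a description of letters and not a bound site. Scn3a had no entry among these windows.

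The cytoplasmic beta subunits bind the pore's intracellular linker and bring the channel to the surface. Cacnb3 and Cacnb4 made up 79.0% and 19.2% of the summed level per length of the 4 genes. Cacnb3 was at 66.0 CPM with a log2 fold change of -0.05 per the authors' deposited table (p = 0.884). Cacnb4 was at 47.3 CPM with a log2 fold change of 0.58 per the authors' deposited table, the smallest p of the beta group (p = 0.0733). Cacnb1, the skeletal muscle partner of Cacna1s, stood at 0.32 (p = 0.76) and Cacnb2 at 1.04 (p = 0.27) on the log2 scale per the authors' deposited table, at 1.67 and 0.398 CPM.

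The gamma genes form a mixed group. Cacng1 and Cacng6 encode muscle-type calcium channel subunits, while the other 6 encode proteins known mainly as auxiliary subunits of AMPA-type glutamate receptors (TARPs). Cacng1 and Cacng6 were at 0.281 and 0.138 CPM with log2 fold changes of -0.29 and -2.04 per the authors' deposited table (p = 1 for both). Among the TARPs, Cacng5 was the most abundant at 8.82 CPM, with a log2 fold change of 0.17 per the authors' deposited table (p = 0.771). Cacng2 (stargazin) was at 7.56 CPM with 0.54 on the log2 scale (p = 0.207) and Cacng4 at 5.71 CPM with -0.66 (p = 0.206) per the authors' deposited table. Cacng8 had the smallest p of the TARPs per the authors' deposited table, at 1.56 CPM with a log2 fold change of -0.83 (p = 0.193). Cacng3 stood at -0.31 (p = 0.631) and Cacng7 at -0.75 (p = 0.562) on the log2 scale per the authors' deposited table. Of the 6 TARP values, 2 were positive and 4 negative.

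**Figure D3:**
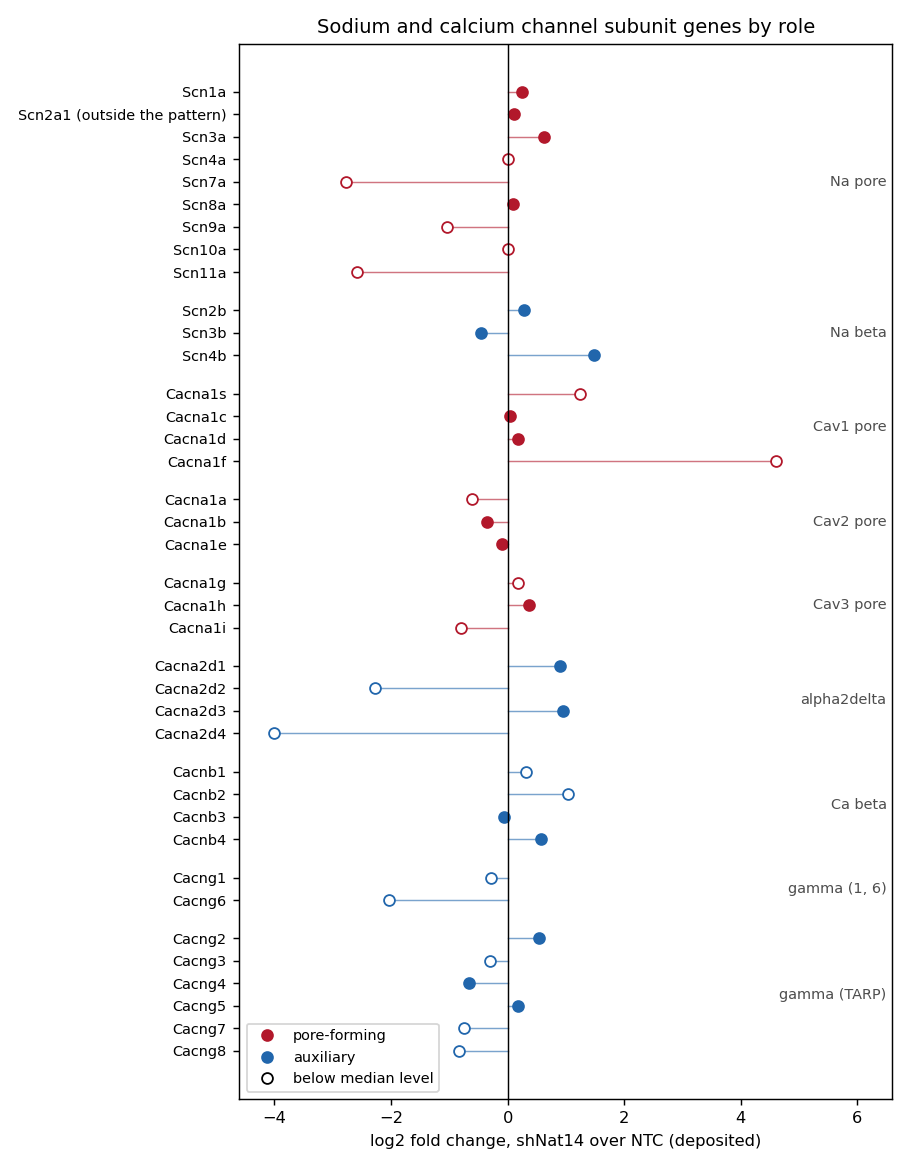
Log2 fold change of shNat14 over NTC (x axis) per the authors' deposited table for subunit genes, grouped by role (y axis). Red points are pore-forming and blue points auxiliary subunits, and open points lie below the median level. Cacna2d1 and Cacna2d3 sit at 0.90 and 0.95, Scn4b at 1.48, and no Cav2 point lies above 0.

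Pore-forming and auxiliary subunits were then set side by side. Above the lowest level, the 18 pore-forming genes had a median log2 fold change of 0.02 and the 20 auxiliary genes of 0.06 per the authors' deposited table, beside 0.00 over all 17400 genes at such levels. Signs were even, with 9 positive and 8 negative among the pores (1 at 0) and 10 and 10 among the auxiliary genes. At or above the median level, 8 pore-forming genes had a median log2 fold change of 0.14 and a range from -0.35 to 0.63 per the authors' deposited table. At that level 10 auxiliary genes had a median of 0.41 and a range from -0.66 to 1.48 per the authors' deposited table. The median over all 10969 genes of that level was 0.03 per the authors' deposited table.

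Without regard to sign, the values of the auxiliary genes were spread more widely than those of the pores at this level. The median absolute log2 fold change at or above the median level was 0.21 for the pore-forming and 0.56 for the auxiliary genes, beside 0.25 for all genes of that level per the authors' deposited table. The values of the classes overlapped, and all 8 pore values lay inside the auxiliary range. Positive values made up 6 of 8 pore-forming and 7 of 10 auxiliary genes per the authors' deposited table, beside 53.6% of all genes of that level. At an unadjusted p under 0.05 there were 1 of 8 pore-forming and 2 of 10 auxiliary genes, beside 5.91% of all genes of that level per the authors' deposited table. Genes are not replicates of a condition, and the difference between the classes was not tested. Below the median level, the medians were -0.70 for 10 pore-forming and -0.53 for 10 auxiliary genes per the authors' deposited table. There the order without regard to sign was the other way, with median absolute values of 1.01 for the pore-forming and 0.79 for the auxiliary genes, beside 0.88 for all genes of those levels per the authors' deposited table.

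**Figure D4:**
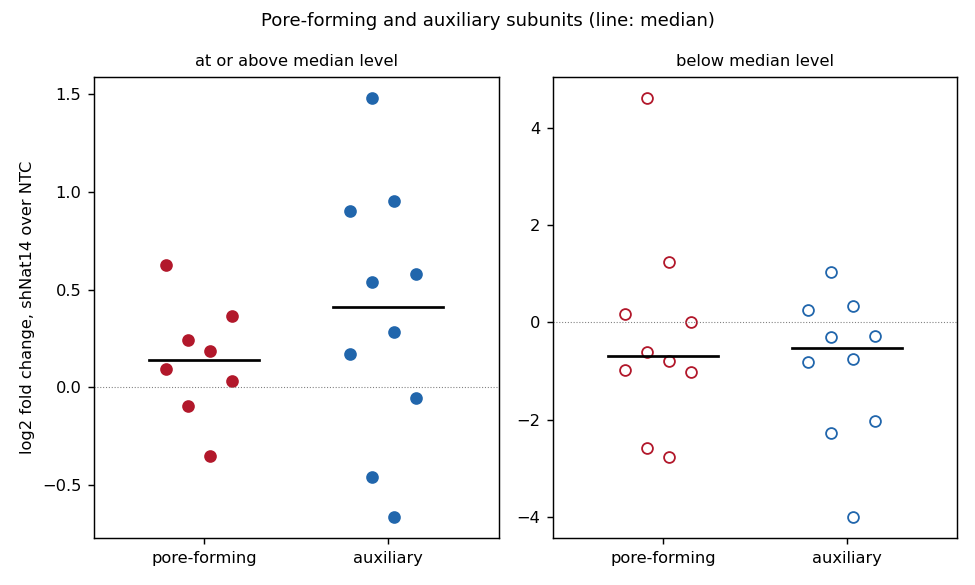
Log2 fold change of shNat14 over NTC (y axis, a scale of its own in each panel) per the authors' deposited table for pore-forming and auxiliary subunit genes, at or above the median level (left) and below it (right). Each point is a gene and each line a median, 0.14 and 0.41 on the left and -0.70 and -0.53 on the right, and the points of the classes overlap in both panels.

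Many of the subunit genes lie next to each other in the genome, in the RefSeq annotation of GRCm38.p6. On chromosome 2, Scn3a and Scn2a are adjacent, and Scn1a, Scn9a and Scn7a follow each other with no protein-coding gene between them. The log2 fold changes there ran from -2.77 for Scn7a to 0.63 for Scn3a per the authors' deposited table, so this cluster held values of both directions. The negative values were those of Scn7a and Scn9a, both below the median level. The beta genes Scn2b and Scn4b are adjacent on chromosome 9, with 0.28 and 1.48 on the log2 scale per the authors' deposited table. On chromosome 11, Cacng1, Cacng4 and Cacng5 are adjacent, with -0.29, -0.66 and 0.17 per the authors' deposited table. On chromosome 7, Cacng7, Cacng8 and Cacng6 are adjacent, and all were negative per the authors' deposited table, at -0.75, -0.83 and -2.04, each below the median level. The sodium channel pores are close in sequence, so any reads shared among them would leave their values uncertain.

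Genes that work with these channels were read from 7 lists of 63 genes in all, of which 62 were above the lowest level. None was called per the authors' deposited table, where 34 of all 17400 genes above the lowest level were. Of the 62 genes, 1 had an unadjusted p under 0.05, beside 6.35% of all genes at such levels. Over the 62 genes the median log2 fold change was 0.15 per the authors' deposited table, with 39 positive and 23 negative values. Over all genes at such levels the median was 0.00 and 50.3% were positive. The difference was not tested. The fibroblast growth factor homologous factors, which bind the tail of sodium channels, had 4 positive values between 0.16 and 0.29 per the authors' deposited table, with Fgf12 at 0.29 (p = 0.372). Of 9 genes of the axon initial segment and of sodium channel turnover, 8 were positive per the authors' deposited table, and the ubiquitin ligase Nedd4l had the smallest p of the list (0.26 on the log2 scale, p = 0.327).

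Calcium channel regulators gave 8 positive and 4 negative values, and the adaptor Stac2 had the smallest p among them per the authors' deposited table (fold change -0.95 on the log2 scale, p = 0.161). Active zone and release genes, which hold calcium channels near vesicles, were 6 positive and 6 negative, with the scaffold Pclo at 0.45 (p = 0.216) per the authors' deposited table. In the complex of the sodium leak channel Nalcn, 4 genes above the lowest level were split 2 and 2, with Fam155a at -0.52 (p = 0.149) per the authors' deposited table. The gene at unadjusted p under 0.05 was Itpr3, a calcium release channel of the endoplasmic reticulum, with a log2 fold change of -4.13 at 0.394 CPM per the authors' deposited table (p = 0.00929, adjusted p = 0.636). Its list of calcium release and store entry had 8 positive and 6 negative values. Among 7 calcium extrusion genes, 3 were positive and 4 negative, with the plasma membrane pump Atp2b1 at 0.32 (p = 0.224) per the authors' deposited table.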

How the data were processed

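The data were 1 table of the authors' own comparison of 3 shNat14 with 3 NTC libraries. Per the file headers each gene has a log2 fold change, a level averaged over libraries (log2 CPM), an unadjusted p-value and its adjusted form, and these log2 values and p-values were used as deposited. Tools listed in the submitters' processing notes, with no role for each, are HTSeq 0.5.4p1, DESeq, SAMtools 0.1.19 and TopHat2 2.0.8. The build listed there is hg19, a human build, although the symbols are mouse, so the build and the test behind the table are unresolved. No information on normalization, filters, prior count or strand is given in the sources used here, and depth per library is unknown.

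CPM and linear fold were computed as powers of 2. Levels per kb used summed exon lengths of the GENCODE M21 basic set. Symbols and gene order came from RefSeq (GRCm38.p6). Both matched all 39 genes. The subunit genes and lists were chosen with earlier results of these data known, so counts over them are descriptions. The values of 2 subunit genes are not reported here, though they remain in counts and medians. The other subunit genes are named, with full statistics for those at unadjusted p under 0.05 and for the smallest p and the highest level in each role, and each partner list by its smallest p. Marker genes named were chosen after their values were seen. No new model was fitted. Benjamini-Hochberg adjustment was recomputed for alternatives and tested on simulated data, with Python 3.11.15, pandas 2.3.3, numpy 2.4.6 and scipy 1.17.1.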

Additional observations from a re-analysis of the deposited data

How the results depend on the processing

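No subunit gene and no partner gene passed under any alternative run for these counts, which were adjusted p under 0.1 or 0.2 and adjustment over the genes above the lowest level or at or above the median level. The adjusted p of Cacna2d1 ran from 0.299 to 0.378 over these adjustments. The 3 subunit genes at unadjusted p under 0.05 became 1 at 0.01 and 5 at 0.1. Medians of log2 fold change depended on the genes of low level. With genes at or above the median level the median was 0.14 for pore-forming and 0.41 for auxiliary genes, against 0.02 and 0.06 in the report. By role these values were 0.24 for sodium pores (-0.49 above the lowest level), 0.11 for Cav1 (0.71), -0.22 for Cav2 (-0.35), 0.37 for Cav3 (0.17), 0.93 for alpha2delta (-0.68), 0.26 for calcium channel beta (0.45) and 0.17 for TARP genes (-0.48). With means in place of medians, pore-forming and auxiliary genes stood at -0.092 and -0.26, sodium pores at -0.80, sodium beta at 0.39 (0.27), Cav1 at 1.52, Cav3 at -0.086, alpha2delta at -1.10 and TARP genes at -0.31. Without the TARP genes the auxiliary median was 0.27. The sodium pore median was 0 with no level filter and 0 with Scn2a1 added, which was tried only after the data had been seen. Re-centring moved each median by 0.03. The 2 low muscle-type gamma genes gave no value at or above the median level. The level filters and the alternatives that drop or add genes differ by the genes kept, and for the means the cause was not tested. No paired analysis was possible because single libraries have no columns in the deposited table, and for that reason no library could be left out. A missing depth sets no detection limit here.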
